A study of Mus musculus with 3 samples.

Results

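Cxcl12, Cxcl14, Cxcr4 and Ackr3 are a small family of chemokine ligands and receptors, and their RNA was followed by cell class in single cells of the mouse palatal shelves. The members, 2 ligands and 2 receptors, were named by gene and matched by symbol, giving 4 of the 32285 genes in the deposited count matrices. Chemokines are small secreted proteins that guide cell movement through receptors that cross the cell membrane several times. Cxcl12 binds Cxcr4, a receptor that signals through inhibitory G proteins and is known from leukocytes, growing vessels and migrating neurons, and it also binds Ackr3, an atypical receptor that recruits arrestins and takes the ligand up from the surroundings. Cxcl14 is a chemokine of epithelia and connective tissue whose receptor is less settled. In the embryonic head, Cxcl12 is best known from mesenchyme and the meninges, from which it attracts Cxcr4-bearing cells.

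The tissue came from wild-type embryos of the C57BL/6J mouse strain, taken at embryonic days E13.5, E14.5 and also E15.5, the days over which the shelves lift and fuse. Each stage was 1 library made from shelves of 3 embryos, pooled and dissociated with an enzyme, and the cells were fixed in methanol and run on a droplet platform. With 1 library a stage there was no replicate, so no test was run and no p-value is given. The intervals quoted are exact 95% intervals (Poisson for levels, Clopper-Pearson for shares of cells, conditional binomial for ratios) and cover counting error only.

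A level is given as CPM, the unique molecular identifiers (UMIs, which count captured RNA molecules) of a gene in the summed cells of a class per 1000000 UMIs of those cells. Since the counts were made from 1 end of each RNA, levels of different genes are not compared below. The 3 libraries held 2079 to 4236 cell barcodes with median depths of 1614 to 1735 UMIs, and 1750 to 3583 cells a library passed the filters. The pairs of libraries shared 3, 1 and 1 barcodes. A cell was placed in a class when at least 3 markers of that class were detected, with a lead of at least 2 markers over any other class. This put 355, 1082 and 1651 cells in the mesenchymal class in order of stage, 64, 83 and 190 in the epithelial class, 8, 45 and 55 in the endothelial class, 15, 57 and 84 in the myeloid class, and 1848, 105 and 163 in the neuronal class. The library labelled E13.5 palate was thus mostly neural: neuronal cells were 51.6% of it against 6.00% and 6.31% of the later libraries, and mesenchymal cells 9.91% against 61.8% and 63.9%. Comparisons of E15.5 with E14.5 do not use that library and are given beside those that do. Levels are given for classes of at least 20 cells in a library, which leaves out the endothelial and myeloid cells of E13.5. Genes outside the class marker lists were ranked in these same cells by their level over the highest other class. Genes picked this way describe the classes and do not check the gate. Runx2, a bone regulator, was at 932 CPM in mesenchymal cells and at most 84.1 CPM in any other class. Krtdap was at 498 against 12 CPM in epithelial cells. Both are also markers used below to divide classes. Cd93 was at 432 against 2.47 CPM in endothelial cells and F13a1 at 1146 against 3.00 CPM in myeloid cells. Nrxn3 was at 3285 against 139 CPM in neuronal cells.

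The genes lie at separate loci in the GRCm38 (mm10) build of the mouse genome, and no other gene of the GENCODE M21 annotation overlaps any of them. Cxcl12 (ENSMUSG00000061353) spans chromosome 6, 117168535 to 117181367, on the plus strand, and Cxcl14 (ENSMUSG00000021508) spans chromosome 13, 56288643 to 56296551, on the minus strand. The receptor genes are both on chromosome 1: Cxcr4 (ENSMUSG00000045382) at 128588199 to 128592293 on the minus strand and Ackr3 (ENSMUSG00000044337) at 90203980 to 90216751 on the plus strand. The 150 bases that precede the RefSeq start of each gene (RefSeq, GRCm38.p6) are shown so that the proximal promoters of a ligand and its receptors with different cell patterns can be read side by side. They are written 5′ to 3′ on the gene's own strand, with capitals marking the GC box GGGCGG and the TATA box TATAAA, each searched on both strands.
Cxcl12: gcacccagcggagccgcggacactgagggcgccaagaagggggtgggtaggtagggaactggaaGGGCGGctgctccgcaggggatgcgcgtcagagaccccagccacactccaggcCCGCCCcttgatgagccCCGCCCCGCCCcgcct
Cxcl14: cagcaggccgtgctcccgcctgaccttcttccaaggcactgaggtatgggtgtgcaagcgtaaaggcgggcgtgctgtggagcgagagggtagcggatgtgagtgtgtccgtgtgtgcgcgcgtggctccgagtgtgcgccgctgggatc
Cxcr4: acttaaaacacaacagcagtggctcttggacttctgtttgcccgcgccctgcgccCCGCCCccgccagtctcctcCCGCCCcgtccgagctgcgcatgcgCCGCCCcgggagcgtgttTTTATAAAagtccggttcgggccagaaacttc
Ackr3: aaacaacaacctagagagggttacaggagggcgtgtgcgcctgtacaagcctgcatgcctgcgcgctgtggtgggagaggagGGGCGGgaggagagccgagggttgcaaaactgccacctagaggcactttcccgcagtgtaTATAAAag
The windows are chr6:117168385-117168534 for Cxcl12, chr13:56296552-56296701 for Cxcl14, chr1:128592300-128592449 for Cxcr4 and chr1:90203830-90203979 for Ackr3. The Cxcl12 window held 4 GC boxes and no TATAAA match, with 72.7% of its bases G or C, while the Cxcl14 window held neither motif, with 65.3%. The Cxcr4 window held 3 GC boxes and 2 overlapping TATAAA matches, read on opposite strands 30 and 32 bases before the start, and the Ackr3 window held 1 of each, with the TATAAA 8 bases before the start. Of all 32851 windows of this length, 28.6% held a GC box and 7.57% a TATAAA, and the median share of G and C bases was 54.0%. A match is a description of these letters only, and no measurement of the study bears on the windows.

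Cxcl12, the shared ligand of both receptors, was a mesenchymal RNA at all 3 stages. In mesenchymal cells it was at 222 CPM (interval 194 to 253, 224 UMIs) at E13.5, 192 CPM (176 to 208, 561 UMIs) at E14.5 and 199 CPM (187 to 212, 957 UMIs) at E15.5. The 3 values lay close together, and the intervals of each pair overlapped. E15.5 stood at 1.04 times E14.5 (0.935 to 1.16) and at 0.899 times E13.5 (0.777 to 1.05), a log2(CPM + 1) ratio of -0.15 beside a median of -0.02 over all genes tested. Cxcr4 was below the mean of 5 CPM set for a call, and none of the other 3 members passed a 2-fold difference between any pair of stages in mesenchymal cells, where 8.38% of 11455 genes passed it upward and 3.75% downward from E13.5 to E14.5, 1.21% and 1.27% from E14.5 to E15.5, and 9.95% and 5.27% from E13.5 to E15.5.

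At the level of single cells, 107 of 355 mesenchymal cells carried a Cxcl12 UMI at E13.5 (30.1%, 25.4 to 35.2), 262 of 1082 at E14.5 (24.2%, 21.7 to 26.9) and 462 of 1651 at E15.5 (28.0%, 25.8 to 30.2). Thinning, which draws every cell down to 1500 UMIs and leaves out shallower cells, brought these shares to 21.7%, 20.6% and 20.3%. The most Cxcl12 UMIs in 1 mesenchymal cell were 13, 20 and 18. Mesenchymal cells held 82.9% and 86.8% of the Cxcl12 UMIs of the E14.5 and E15.5 libraries and 33.9% in the E13.5 library, in which they were the smaller class.

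Myeloid cells, used as the class that should lack the gene, showed 1 Cxcl12 UMI among 57 cells at E14.5 (7.24 CPM, 1.75% of cells) and 2 among 84 cells at E15.5 (8.92 CPM, 2.38% of cells), at median depths of 1783 and 1716 UMIs against 1911 and 2110 in mesenchymal cells. Epithelial cells were at 16.1 CPM (4.38 to 41.2, 4 UMIs), 30.6 CPM (14.7 to 56.3, 10 UMIs) and 8.33 CPM (3.06 to 18.1, 6 UMIs) at the 3 stages. Endothelial cells were at 37.9 CPM (12.3 to 88.5, 5 UMIs) at E14.5 and 21.3 CPM (5.80 to 54.5, 4 UMIs) at E15.5. These 3 classes overlapped one another in their intervals and all lay below the mesenchymal interval. Mesenchymal cells exceeded epithelial cells 13.8-fold (5.31 to 51.0) at E13.5, 6.27-fold (3.38 to 13.1) at E14.5 and 23.9-fold (11.0 to 65.4) at E15.5. On the log2(CPM + 1) scale, which draws ratios of low levels toward 0, the E15.5 ratio was 4.43, and it was 2.26 with classes taken from clusters and 3.44 with a looser gate. Among all genes tested, 18.2%, 17.5% and 15.6% were at least 2-fold higher in mesenchymal than in epithelial cells of the same libraries. Mesenchymal cells exceeded endothelial cells 5.06-fold (2.16 to 15.6) and 9.37-fold (3.65 to 34.5) at E14.5 and E15.5, where 23.4% and 23.3% of genes were at least 2-fold higher.

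**Figure D1:**
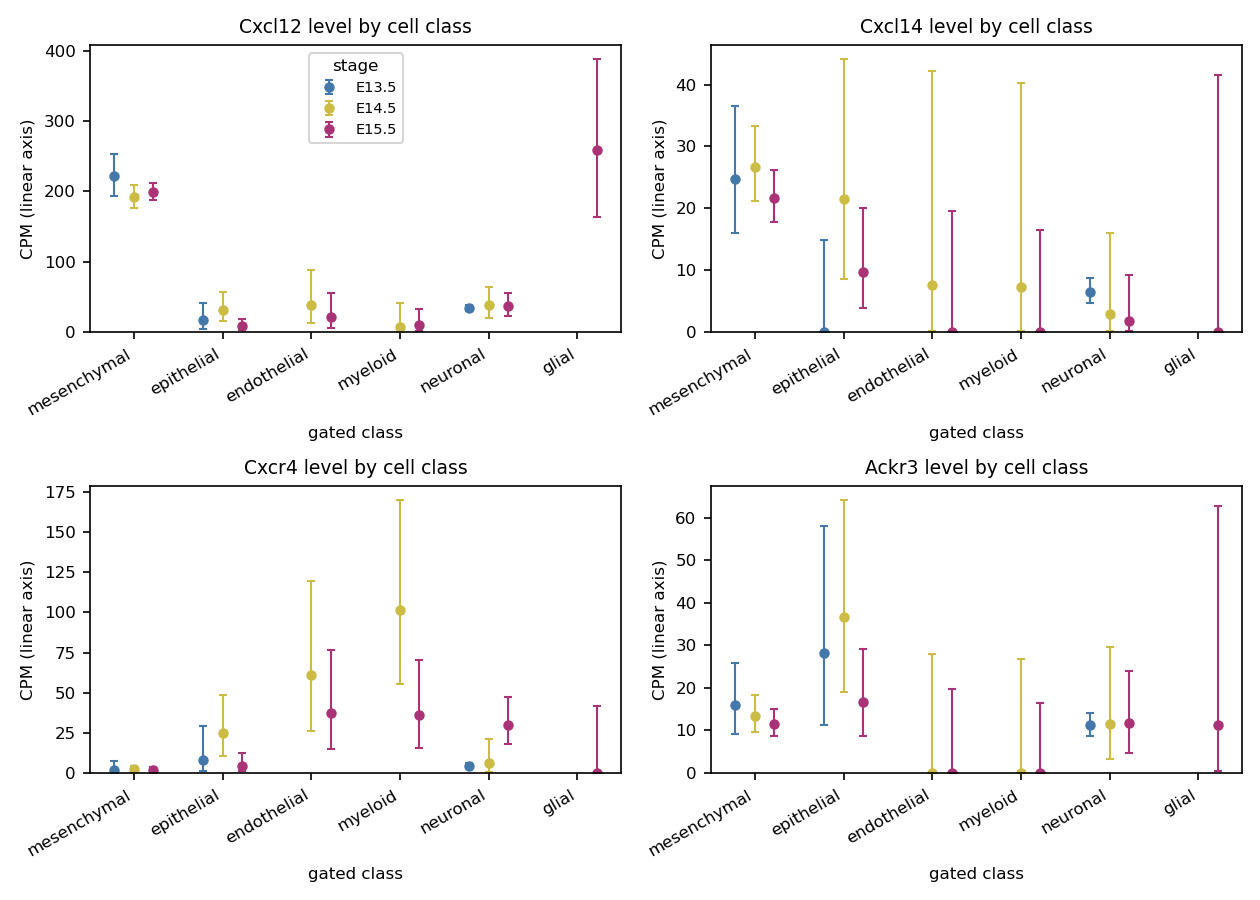
Level of each member (CPM on a linear axis starting at 0, with its own scale in each panel) in the gated cell classes with at least 20 cells; points are the summed cells of 1 library, colours the stages, and bars exact 95% Poisson intervals. Cxcl12 sits near 200 CPM in mesenchymal cells at each stage, Cxcr4 is highest in myeloid and endothelial cells at E14.5, and Ackr3 has no UMI in either of those classes.

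In neuronal cells Cxcl12 was at 33.4 CPM (29.0 to 38.1, 213 UMIs) at E13.5, 37.5 CPM (19.9 to 64.0, 13 UMIs) at E14.5 and 36.5 CPM (22.9 to 55.2, 22 UMIs) at E15.5. These levels overlapped, and mesenchymal cells exceeded them 6.65-fold (5.49 to 8.06), 5.12-fold (2.97 to 9.69) and 5.47-fold (3.59 to 8.77), where 15.7%, 18.7% and 18.1% of all genes were at least 2-fold higher. With classes taken from clusters the E15.5 ratio was 4.18 on the log2(CPM + 1) scale, against 2.42 as gated. The neuronal UMIs were not spread evenly. At E13.5, 150 of the 213 lay in 177 gated neuronal cells that belonged to the deepest of 25 clusters, a cluster led by the embryonic globins Hba-x and Hbb-y. Those 177 cells were at 75.3 CPM (63.7 to 88.4) with a median depth of 7476 UMIs, while the other 1671 neuronal cells were at 14.3 CPM (11.0 to 18.3) with a median depth of 2123 UMIs. The interval of those 1671 cells lay below the neuronal intervals of E14.5 and E15.5, so the overlap of the stages rested on the deepest cluster. Without that cluster the mesenchymal to neuronal ratio at E13.5 was 3.86 on the log2(CPM + 1) scale, against 2.70 with it. At E14.5 and E15.5 the UMIs sat in 5 and 6 cells, with up to 9 and 12 in 1 cell. The collagen RNAs Col1a1, Col1a2 and Col3a1, defining markers of mesenchyme, were at 171, 850 and 497 CPM in neuronal cells against 1869, 7083 and 7889 CPM in mesenchymal cells. Per 1000 collagen UMIs, Cxcl12 stood at 196 (170 to 224), 44.1 (23.5 to 75.4) and 73.3 (46.0 to 111) UMIs in neuronal cells and at 119 (104 to 135), 27.1 (24.9 to 29.4) and 25.3 (23.7 to 26.9) in mesenchymal cells. The intervals of the classes were apart at E13.5 and E15.5 and overlapped at E14.5. The part of deep cells or of RNA from other cells in the neuronal level was not tested.

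A small glial class, gated on Sox10, Erbb3, Cdh19 and other genes of Schwann-type cells, also carried Cxcl12. At E15.5 its 30 cells held 23 Cxcl12 UMIs in 7 cells, at 259 CPM (164 to 388), which overlapped the mesenchymal interval (mesenchymal over glial 0.770, 0.510 to 1.22). In the cluster led by Egfl8 and Mal, Cxcl12 was at 79.5 CPM (25.8 to 186, 5 UMIs) at E13.5, 105 CPM (57.5 to 176, 14 UMIs) at E14.5 and 232 CPM (162 to 321, 36 UMIs) at E15.5. The E15.5 value lay above the others, though its interval overlapped that of E13.5 and of E14.5. The same cluster held collagen RNA at 318, 3949 and 4453 CPM, which moved upward between the first and the later libraries as well. In the gated glial cells of E15.5 Cxcl12 stood at 81.0 UMIs per 1000 collagen UMIs. The part of collagen-bearing RNA in the glial level was not tested. The order of the classes at E15.5 was glial and mesenchymal, whose intervals overlapped, then neuronal, endothelial, myeloid and epithelial, each overlapping its neighbour. At E14.5 mesenchymal cells led, and the endothelial, neuronal, epithelial and myeloid intervals overlapped in turn, while at E13.5 the neuronal and epithelial intervals overlapped below the mesenchymal one.

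Within the mesenchyme, the Cxcl12 level in CPM was lower in cells that carried skeletal markers. Cells with at least 2 osteogenic markers (Runx2, Sp7, Alpl, Ibsp, Spp1, Dlx5, Mef2c and Phex) were at 123, 121 and 133 CPM at the 3 stages, and the other mesenchymal cells at 256, 267 and 255 CPM. The ratios were 0.478 (0.318 to 0.698), 0.455 (0.379 to 0.544) and 0.521 (0.452 to 0.599), so the osteogenic cells lay at about the same fraction of the rest in each library. Cells with chondrogenic markers, the collagens and matrix proteins of cartilage, were at 141, 124 and 95.6 CPM against 245, 208 and 206 CPM, with ratios of 0.573, 0.597 and 0.463. Among all genes outside the respective marker list, 0.683% of 10391 were at least 1.5-fold lower in osteogenic cells in each of the 3 libraries, and 0.911% of 10205 in chondrogenic cells. Cells of both sub-gates were deeper than the others, with medians of 2801, 2630 and 2999 UMIs in osteogenic cells and 3175, 3568 and 4503 UMIs in chondrogenic cells, against 1665 to 2172 UMIs in the rest. The shares of cells with a Cxcl12 UMI, which rise with depth, did not show the difference throughout. They were 23.9%, 23.7% and 27.1% in osteogenic cells against 31.7%, 24.5% and 28.4%, and 21.4%, 32.6% and 29.8% in chondrogenic cells against 31.8%, 23.4% and 27.9%. The part of depth was not tested. In cells with cycling markers Cxcl12 was at 157, 129 and 145 CPM against 260, 220 and 218 CPM in the rest. The ratios were 0.606, 0.585 and 0.666. Cycling cells were also deeper, with medians of 3476.5, 2904 and 3596 UMIs against 2010, 1789 and 1922.5 UMIs. Their shares with a Cxcl12 UMI were 35.2%, 23.7% and 31.5% against 28.5%, 24.3% and 27.4%, so higher than the rest at E13.5 and E15.5. The part of depth was not tested here either.

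**Figure D2:**
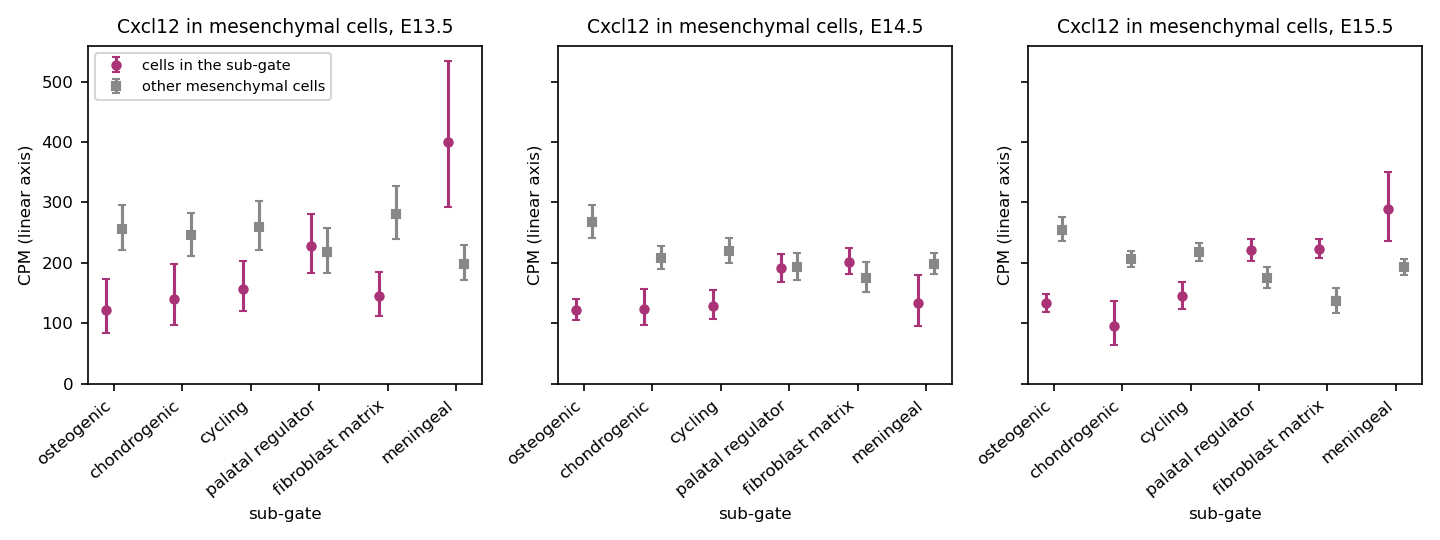
Cxcl12 level (CPM, linear axis starting at 0) in mesenchymal cells inside each marker sub-gate (circles) and in the other mesenchymal cells (squares) of the same library, with exact 95% Poisson intervals; the panels are the 3 stages. Osteogenic, chondrogenic and cycling cells lie below the rest at every stage, whereas fibroblast matrix and meningeal cells lie above or below depending on the library.

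Other mesenchymal sub-gates did not keep 1 direction. Cells carrying palatal regulators, the transcription factors Pax9, Osr1, Osr2, Msx1, Tbx22 and related genes, were at 228, 191 and 221 CPM against 218, 193 and 175 CPM in the rest, with ratios of 1.05, 0.992 and 1.26 (1.10 to 1.43). Cells with fibroblast matrix markers such as Dcn, Lum and Ogn were at 145 against 280 CPM at E13.5 (0.515, 0.379 to 0.694), 202 against 175 CPM at E14.5 (1.16) and 223 against 137 CPM at E15.5 (1.63, 1.39 to 1.93). The 27, 43 and 51 cells with meningeal markers such as Foxc1, Zic1 and Aldh1a2 were at 400, 133 and 289 CPM against 199, 199 and 192 CPM, with ratios of 2.01 (1.42 to 2.80), 0.667 (0.471 to 0.921) and 1.50 (1.21 to 1.85). The meningeal cells had median depths of 3222, 3923 and 5439 UMIs, above those of the other cells, and whether depth moved their level was not tested.

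Levels by unsupervised cluster are a description, since the clusters were made from the variable genes themselves. Over all stages Cxcl12 was at 329 CPM in a cluster led by Klhl1, Ccl21a and Slc26a7, at 250 CPM in one led by Dqx1, Ibsp and Mgp and at 245 CPM in one led by Pgm5 and Itga8. It was at 166 CPM in a cluster led by Cntn6 and Ptgds that held the palatal regulator Msx1 among its leading genes. The lowest mesenchymal clusters were a cartilage cluster led by Matn1, at 67.3 CPM, and a bone cluster in which Ibsp, Runx2 and Alpl led, at 60.8 CPM. By stage the Klhl1 cluster was at 311, 338 and 397 CPM and the cartilage cluster at 47.2, 86.8 and 69.7 CPM, so the Klhl1 cluster lay above the cartilage cluster in each library. The bone gene Ibsp was among the leading genes of both a high and the lowest cluster.

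Genes that accompanied Cxcl12 from cell to cell were looked for among thinned mesenchymal cells, comparing cells with and without a Cxcl12 UMI. Of 2279 genes, 5 were at least 1.5-fold higher and 3 at least 1.5-fold lower in the cells with a UMI in all 3 libraries. Kcnd2, a voltage-gated potassium channel, averaged 0.52 against 0.21 UMIs per cell at E13.5, 0.30 against 0.14 at E14.5 and 0.34 against 0.10 at E15.5. The nuclear receptor Nr2f2 averaged 0.35 against 0.20, 0.25 against 0.12 and 0.19 against 0.11. Pdpn, a membrane glycoprotein, averaged 0.17 against 0.11, 0.28 against 0.12 and 0.17 against 0.09, and Prxl2a was also among the 5. Across 15 class and stage sums, which share libraries and differ in depth, the genes whose log2(CPM + 10) was most like that of Cxcl12 among 8284 genes were the basement membrane chain Lama2 (Pearson r = 0.93), the elastic fibre protein Fbln5 (0.92) and Matn4 (0.91).

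Cxcl14, the other ligand, was a sparse RNA found mainly in mesenchymal cells in the later libraries. Mesenchymal cells held 25 UMIs at E13.5 (24.7 CPM, 16 to 36.5), 78 at E14.5 (26.7 CPM, 21.1 to 33.3) and 104 at E15.5 (21.7 CPM, 17.7 to 26.3). The stage intervals overlapped, with E15.5 at 0.812 times E14.5 (0.600 to 1.10) and 0.876 times E13.5 (0.562 to 1.42). Without chondrogenic, osteogenic and meningeal cells the E15.5 to E13.5 ratio passed 2-fold, at -1.08 on the log2(CPM + 1) scale against -0.18 with them. A Cxcl14 UMI was found in 15, 53 and 70 mesenchymal cells (4.23%, 4.90% and 4.24%, or 2.81%, 3.51% and 2.88% of thinned cells). Mesenchymal cells held 28.4%, 78.8% and 83.9% of each library's Cxcl14 UMIs.

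Epithelial cells held no Cxcl14 UMI among 64 cells at E13.5, 7 in 5 of 83 cells at E14.5 (21.4 CPM, 8.61 to 44.2) and 7 in 5 of 190 cells at E15.5 (9.72 CPM, 3.91 to 20.0). At E13.5 the mesenchymal level was at least 2.05-fold higher than the 3 UMIs that a count of 0 in the epithelial cells allows (exact lower bound of the ratio 1.55). Mesenchymal over epithelial ratios were 1.25 (0.577 to 3.20) at E14.5, where the classes were not told apart by counting, and 2.23 (1.05 to 5.69) at E15.5. Neuronal cells held 41 UMIs at E13.5 (6.42 CPM, 4.61 to 8.71) and 1 UMI in each later library, and mesenchymal cells exceeded them 3.86-fold (2.25 to 6.49) at E13.5. Myeloid cells, the class that should lack the gene, held 1 UMI at E14.5 and none at E15.5, and endothelial cells likewise 1 and none. At E14.5 the shares of cells with a UMI were 4.90% of mesenchymal and 6.02% of epithelial cells, so no order of these classes is read there, and at E15.5 mesenchymal cells lay above epithelial cells. The remaining classes held 0 or 1 UMI in these libraries, and at E14.5 this does not place the small endothelial and myeloid classes below mesenchymal cells.

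By mesenchymal cluster, Cxcl14 followed another order than Cxcl12. It was at 49.6, 45.7 and 52.2 CPM at the 3 stages in the Dqx1 cluster and at 47.1 and 47.6 CPM at E14.5 and E15.5 in the Cntn6 cluster. The cartilage cluster held no Cxcl14 UMI at any stage, and the Klhl1 cluster, highest for Cxcl12, was at 18.7, 0 and 9.7 CPM. A cluster of epithelial vote led by the pituitary hormone genes Pomc and Cga was at 39.2 CPM over all stages. The chondrogenic sub-gate held 0, 9 and 2 Cxcl14 UMIs and was at least 1.5-fold lower in each library, though the interval of the ratio holds 1 in the E14.5 library (0.243 to 1.12) and in the E15.5 library (0.0347 to 1.08). Mesenchymal cells with palatal regulators held 1 of 25 Cxcl14 UMIs at E13.5 (2.54 against 39.0 CPM, ratio 0.0651, 0.00158 to 0.399), were at 28.5 against 25 CPM at E14.5 (1.14) and at 27.5 against 15.1 CPM at E15.5 (1.83, 1.20 to 2.84). The E13.5 direction was thus opposite to that of E15.5 and rested on 1 UMI.

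Among single mesenchymal cells no joint detection of the ligands was seen beyond counting error. Among thinned cells with a Cxcl14 UMI, 3 of 7 at E13.5, 3 of 24 at E14.5 (12.5%, 2.66 to 32.4) and 6 of 31 at E15.5 (19.4%, 7.45 to 37.5) also had Cxcl12, against 21.1%, 20.9% and 20.4% of cells without one. The intervals hold the shares of the other cells, and differences smaller than these intervals could not have been seen. In the cells with a Cxcl14 UMI, the clathrin uncoating partner Dnajc6 averaged 4.33 against 0.35 UMIs per cell at E14.5 and 1.94 against 0.44 at E15.5, and the protease Pappa2 0.46 against 0.09 and 0.45 against 0.17. These averages rest on 24 and 31 cells, and 193 of 2072 genes were at least 1.5-fold higher and 65 lower in both libraries. The class and stage patterns most like that of Cxcl14 were those of Cacna1g (r = 0.84), Penk (0.83) and Mia (0.83) over the same 15 sums.

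**Figure D3:**
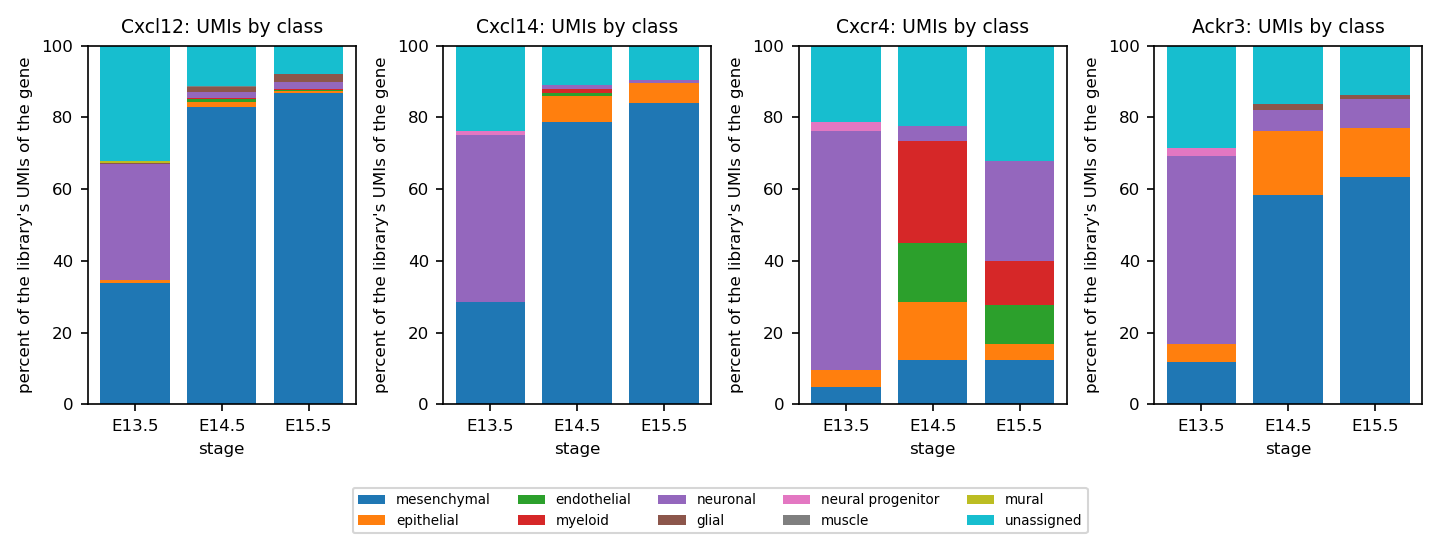
Share of each library's UMIs of a member (percent, axis from 0 to 100) that fell in each cell class, stacked by colour, for the 3 stages. Mesenchymal cells hold 82.9% and 86.8% of Cxcl12 UMIs at E14.5 and E15.5, while the Cxcr4 UMIs are divided among myeloid, endothelial, epithelial, neuronal, mesenchymal and unassigned cells.

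Cxcr4, the signalling receptor, was nearly missing from the mesenchymal cells that carried its ligand. Mesenchymal cells held 2, 6 and 8 Cxcr4 UMIs, at 1.98, 2.05 and 1.67 CPM, in 0.28%, 0.55% and 0.48% of cells. The receptor was found instead in myeloid cells, at 101 CPM (55.4 to 170, 14 UMIs in 9 of 57 cells) at E14.5 and 35.7 CPM (15.4 to 70.3, 8 UMIs in 7 of 84 cells) at E15.5, and in endothelial cells, at 60.7 CPM (26.2 to 120, 8 UMIs in 4 of 45 cells) and 37.2 CPM (15 to 76.7, 7 UMIs in 4 of 55 cells). Myeloid cells exceeded mesenchymal cells 49.4-fold (17.8 to 157) at E14.5 and 21.4-fold (7.01 to 65.4) at E15.5, and endothelial cells did so 29.6-fold (8.99 to 103) at E14.5. In the same libraries 20.9% and 21.5% of genes were at least 2-fold lower in mesenchymal than in myeloid cells, and 15% lower than in endothelial cells at E14.5. Myeloid over endothelial ratios were 1.67 (0.654 to 4.60) and 0.959 (0.304 to 3.11), so counting did not separate these classes. The 15 myeloid cells of E13.5 held no Cxcr4 UMI, which by the 3-cell limit allows a UMI in up to 20.0% of cells.

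From E14.5 to E15.5 the Cxcr4 level of myeloid cells stood at 0.352 (0.128 to 0.899). The share of myeloid cells with a UMI was 15.8% (7.48 to 27.9) and then 8.33% (3.42 to 16.4), or 15.2% and 2.13% of thinned cells. In this comparison 19% of all genes were at least 2-fold lower. Endothelial cells stood at 0.614 (0.189 to 1.94) between the same stages, where 16.2% of genes were at least 2-fold lower.

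In neuronal cells Cxcr4 was at 4.38 CPM (2.91 to 6.34, 28 UMIs) at E13.5, 5.76 CPM (0.698 to 20.8, 2 UMIs) at E14.5 and 29.8 CPM (17.7 to 47.2, 18 UMIs) at E15.5. The E15.5 level lay above the E13.5 interval, at 6.81 times E13.5 (3.55 to 12.7) and 5.18 times E14.5 (1.24 to 46.0). At least 2-fold higher levels were found for 19% of all genes between E13.5 and E15.5 and for 9.76% between E14.5 and E15.5. Without the deepest cluster the E15.5 to E13.5 ratio was 2.47 on the log2(CPM + 1) scale against 2.52 with it. The neuronal cells of the libraries sat largely in different clusters, and those of E13.5 came from a library that was mostly neural. Within the neuronal cluster led by Fstl5 and Gng13, Cxcr4 was at 40.2 CPM at E13.5 and 42.1 CPM at E15.5, without such a difference, and the part of cluster make-up in the 6.81-fold value was not tested.

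Sub-gates within the neurons differed in their Cxcr4 level. At E13.5, neuronal cells with Cajal-Retzius markers (Reln, Trp73, Lhx1, Lhx5, Calb2, Ebf3, Nhlh2 and Ndnf), the early neurons of the cortical surface that are known to follow Cxcl12 from the meninges, were at 8.79 CPM against 1.95 CPM in other neurons (4.52-fold, 1.91 to 11.9). Neurons with olfactory markers such as Gng8, Omp and Ebf2 were at 7.09 against 1.59 CPM (4.46-fold, 1.66 to 15), and those with GABAergic markers at 2.03 against 6.41 CPM (0.317). The olfactory list includes Gap43, itself a marker of the neuronal gate. It was met by 563 of 1848 neurons at E13.5 and 138 of 163 at E15.5. Median depths at E13.5 were 3880 against 2089 UMIs for Cajal-Retzius and 3565 against 1967 UMIs for olfactory markers. The part of depth was not tested. Leaving out the deepest cluster gave 14.8 against 1.74 CPM for Cajal-Retzius markers (8.52-fold, 3.08 to 27.1) and 9.91 against 1.74 CPM for olfactory markers (5.71-fold, 1.97 to 20.1), so both differences were larger without those cells. At E15.5 the neurons with Cajal-Retzius markers were at 46.3 CPM (15 UMIs) against 10.8 CPM (3 UMIs; 4.30-fold, 1.22 to 23.2). At E14.5 the 42 neurons with these markers held no Cxcr4 UMI and the 63 others held 2. The olfactory ratio at E15.5 was 2.07 (0.324 to 86.3), with 1 UMI in the other neurons. Several Cajal-Retzius markers are also carried by olfactory and other peripheral neurons, so that sub-gate is a set of markers and not a single type. The Cajal-Retzius and olfactory sub-gates share cells. They held 20 and 23 of the 28 neuronal Cxcr4 UMIs at E13.5, and 15 and 17 of the 18 at E15.5. Their ratios therefore do not show separate types of receptor-bearing neurons.

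Epithelial cells, set as the background class for Cxcr4, were not empty of it. They stood at 8.04 CPM (0.974 to 29.1, 2 UMIs) at E13.5, 24.5 CPM (10.6 to 48.3, 8 UMIs) at E14.5 and 4.16 CPM (0.859 to 12.2, 3 UMIs) at E15.5. Mesenchymal cells, at 2.05 CPM or less, give the lower background. Clusters of epithelial vote differed in Cxcr4: a ciliated cluster led by Foxj1 and Dynlrb2 was at 42.6 CPM over all stages (17.1 to 87.9, 7 UMIs in 5 of 27 cells), a respiratory-type cluster led by Bpifa1 and Cbr2 was at 10.1, 19.7 and 19.4 CPM, and the stratified cluster led by Krt5 and Krt15 was at 0, 6.87 and 3.57 CPM. A cluster of neuronal vote led by Fstl5 and Gng13 was at 40.2 CPM (14.8 to 87.6) at E13.5, 16.4 CPM (5.33 to 38.3) at E14.5 and 42.1 CPM (24.9 to 66.5) at E15.5, and it held 18 Cxcr4 UMIs among 150 cells at E15.5. The order of the gated classes at E14.5 was myeloid, endothelial, epithelial, neuronal and mesenchymal, each overlapping its neighbour. At E15.5 endothelial, myeloid and neuronal cells overlapped (myeloid over neuronal 1.20, 0.450 to 2.89) and lay above epithelial and mesenchymal cells.

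**Figure D4:**
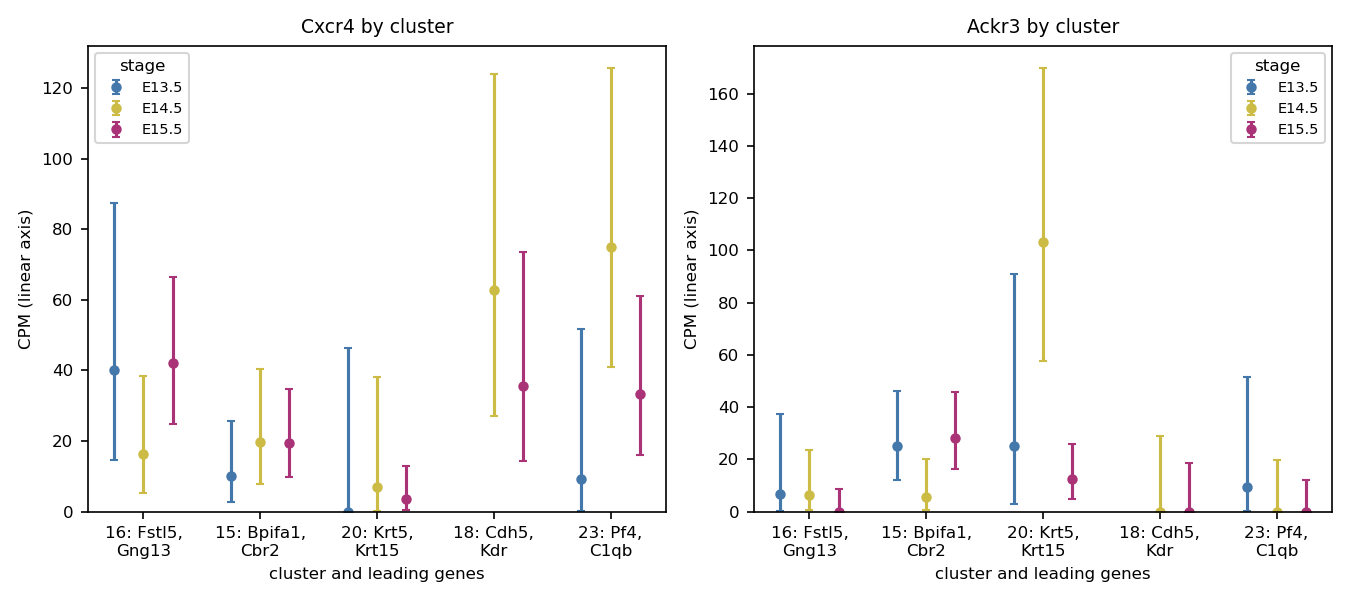
Cxcr4 (left) and Ackr3 (right) in 5 clusters named by number and leading genes, in CPM on linear axes starting at 0; colours are stages and bars exact 95% Poisson intervals. Cxcr4 lies highest in the Pf4 and Cdh5 clusters at E14.5, and Ackr3 reaches 103 CPM in the Krt5 cluster at E14.5 and has no UMI in the Cdh5 cluster.

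Ackr3, the scavenging receptor, was spread over mesenchymal, epithelial and neuronal cells and was not found in myeloid or endothelial cells. Neuronal cells, whose Cxcr4 level overlapped that of myeloid and endothelial cells at E15.5, did hold Ackr3 there. Epithelial cells were at 28.2 CPM (11.3 to 58.0, 7 UMIs) at E13.5, 36.7 CPM (19.0 to 64.2, 12 UMIs) at E14.5 and 16.7 CPM (8.61 to 29.1, 12 UMIs) at E15.5. Mesenchymal cells were at 15.8 CPM (9.05 to 25.7, 16 UMIs), 13.3 CPM (9.49 to 18.2, 39 UMIs) and 11.5 CPM (8.63 to 14.9, 55 UMIs), and neuronal cells at 11.1 CPM (8.68 to 14.0, 71 UMIs), 11.5 CPM (3.14 to 29.5, 4 UMIs) and 11.6 CPM (4.67 to 23.9, 7 UMIs). Of the 5 main classes epithelial cells thus had the highest value in each library, but the mesenchymal and epithelial intervals were apart only at E14.5 (mesenchymal over epithelial 0.363, 0.186 to 0.762), where 16.6% of genes were at least 2-fold lower in mesenchymal cells. The shares of all cells with an Ackr3 UMI at E14.5 were likewise apart, at 10.8% (5.08 to 19.6) of epithelial and 3.42% (2.42 to 4.68) of mesenchymal cells, with median depths of 2984 and 1911 UMIs. The shares of thinned cells did not follow that difference: 0 of 71 epithelial cells (upper bound 5.06%) and 9 of 683 mesenchymal cells (1.32%) kept an Ackr3 UMI at E14.5, against 5.26% and 2.81% at E13.5 and 1.40% and 1.58% at E15.5. No order of these classes is therefore read from the E14.5 level. The mesenchymal and neuronal intervals overlapped at every stage.

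Myeloid and endothelial cells held no Ackr3 UMI. A count of 0, taken as at most 3 cells with a UMI, allows shares of up to 5.26% of 57 myeloid and 6.67% of 45 endothelial cells at E14.5 and up to 3.57% of 84 and 5.45% of 55 at E15.5. The shares of mesenchymal cells with a UMI were 4.23%, 3.42% and 3.15%. At E14.5 and E15.5 these lay below the limits of both classes. Taken 1 library at a time, the counts of 0 therefore do not place these small classes below mesenchymal cells. These limits are for cells with a UMI, not for cells that express the gene. In mesenchymal cells E15.5 stood at 0.859 times E14.5 (0.560 to 1.33) and 0.724 times E13.5 (0.409 to 1.35). Among thinned mesenchymal cells, 3 of 7, 3 of 9 and 1 of 17 cells with an Ackr3 UMI also had Cxcl12, and no cell at any stage had both Cxcl14 and Ackr3.

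The epithelial Ackr3 UMIs stood differently with respect to stratified markers in the later libraries. At E14.5 all 12 lay in the 41 cells with stratified markers such as Krt5, Krt14 and Trp63 (87.2 CPM, 45.1 to 152), at least 5.50-fold higher than the 3 UMIs that a count of 0 allows in the 42 other epithelial cells (exact lower bound of the ratio 3.82). At E15.5, 3 of 12 lay in the 120 stratified cells (7.02 CPM) and 9 in the 70 others (30.7 CPM; 0.229, 0.0399 to 0.918). The sub-gate of simple or respiratory markers, which can share cells with the stratified one, showed no such difference: it held 6 of the 12 UMIs at E14.5 (ratio to the rest 0.547, 0.146 to 2.04) and 7 of 12 at E15.5 (0.768, 0.210 to 3.07). By cluster, the Krt5 cluster was at 25.1 CPM (3.05 to 90.8) at E13.5, 103 CPM (57.7 to 170) at E14.5 and 12.5 CPM (5.02 to 25.7) at E15.5, with a UMI in 12 of 53 cells (22.6%) at E14.5. The Bpifa1 cluster, at 25.2 CPM (12.1 to 46.3) at E13.5, fell in the opposite order, at 5.61 CPM (0.680 to 20.3) at E14.5 and 28.3 CPM (16.2 to 45.9) at E15.5.

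All 4 members had lower epithelial levels at E15.5 than at E14.5 by at least 2-fold on the log2(CPM + 1) scale, where 9.19% of all genes were at least 2-fold lower. Cxcl12 stood at 0.272 (0.0813 to 0.826) and Cxcr4 at 0.170 (0.0291 to 0.708, with 3 UMIs at E15.5). Cxcl14 stood at 0.453 (0.136 to 1.51) and Ackr3 at 0.453 (0.186 to 1.10), whose intervals hold 1. The share of epithelial cells with stratified markers also differed between these libraries, with 41 of 83 cells and then 120 of 190 cells, and its part in these ratios was not tested. Other values followed in part: the share of epithelial cells with Ackr3 was 10.8% and 5.79% at these stages, but 0% and 1.40% of thinned cells. In the Bpifa1 cluster Cxcl14 was at 22.5 CPM (8 UMIs) and 5.30 CPM (3 UMIs), whereas Cxcl12 was at 53.3 and 70.7 CPM, Cxcr4 at 19.7 and 19.4 CPM and Ackr3 at 5.61 and 28.3 CPM.

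In E13.5 neurons the receptors differed in direction in the GABAergic sub-gate. Neurons with GABAergic markers were at 15.9 CPM of Ackr3 against 6.99 CPM in other neurons (2.28-fold, 1.36 to 3.89), and at 13.9 against 5.55 CPM without the deepest cluster (2.50-fold, 1.24 to 5.12). Cxcr4 was lower in the same GABAergic cells, at the ratio of 0.317 given above. In the other sub-gates the Ackr3 ratios were 1.40 (0.854 to 2.34) for olfactory, 1.25 (0.750 to 2.05) for Cajal-Retzius and 1.01 (0.596 to 1.67) for cortical excitatory markers, all with intervals that hold 1. Without the deepest cluster they were 0.913 (0.418 to 1.89), 0.443 (0.114 to 1.24) and 0.485 (0.147 to 1.25). These lay below 1, so the direction turned, though their intervals hold 1 too. Cxcl14 had the same direction as Ackr3 there, at 8.80 against 4.37 CPM (2.01-fold), and at 11.2 against 4.86 CPM without the deepest cluster (2.31-fold, 1.07 to 5.07). By E13.5 cluster, Ackr3 was at 17.1 CPM in one led by Gnrh1 and Dlx6os1, and at 17.4 CPM in the deepest cluster and 15.6 CPM in one led by Adgrv1, so the level was not particular to the first. Cxcl12, by contrast, was at 35.5 against 31.5 CPM in the GABAergic cells (1.13) with the deepest cluster and at 7.27 against 18 CPM (0.403, 0.189 to 0.781) without it, so its direction turned.

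Over the 15 class and stage sums, r was -0.63 between Cxcr4 and Ackr3, -0.53 between Cxcl12 and Cxcr4, 0.42 between Cxcl12 and Cxcl14 and 0.13 between Cxcl12 and Ackr3. The first value includes the counts of 0 for Ackr3 in the small myeloid and endothelial sums. Taken 1 library at a time, these do not show that Ackr3 was lower there than in mesenchymal cells. The patterns most like that of Cxcr4 were Tmem160 (0.90), the clathrin adaptor subunit Ap2s1 (0.89) and the phosphatase Ptpn18 (0.88), each highest in myeloid cells. Those most like Ackr3 were the R-spondin receptor Lgr4 (0.93), the keratin Krt10 (0.93) and Pcm1 (0.91), each highest in epithelial cells at E14.5.

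Most other chemokine ligands and receptors that reached 5 CPM were highest in myeloid cells, while their partners and signalling genes were not. Over all 32285 genes, 45.4% reached 5 CPM in at least 1 of the 5 main classes, between 31.2% (myeloid) and 36.3% (epithelial) reached it in a given class, and of those that reached it 22.3% were highest in myeloid and 17.7% in endothelial cells. The level of 5 CPM was about 2.02 UMIs in the myeloid sum and 43.7 UMIs in the mesenchymal sum, so a single count carries more weight in the small classes. Of 13 other CXC and CX3C ligands found in the matrices, 8 reached 5 CPM in at least 1 of the 5 main classes summed over stages, 5 of them highest in myeloid cells. Platelet factor Pf4, itself a marker of the myeloid gate, was at 2504 CPM there, the neutrophil attractant Cxcl2 at 1351 CPM against 2.41 CPM in mesenchymal cells, and Cxcl1 at 44.5 against 5.61 CPM. Of 22 CC and XC ligands, 12 reached 5 CPM, 11 of them in myeloid cells and 2 in mesenchymal cells. The monocyte attractants Ccl2 and Ccl12 were both at 343 CPM and Ccl4 at 272 CPM in myeloid cells. Besides Cxcl12 and Cxcl14, 2 other CXC ligands that reached 5 CPM were highest in mesenchymal cells, Cxcl13 at 13.6 CPM and Cxcl5 at 6.99 CPM.

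Of 17 other chemokine receptors, 4 reached 5 CPM, and all 4 did so in myeloid cells and none in mesenchymal cells. Cx3cr1 was at 183 CPM, Ccr2 at 170 CPM and Ccr1 at 76.5 CPM in myeloid cells. Among 6 other atypical or related receptors, 4 reached 5 CPM: Ccrl2 and Cmklr1 were at 54.3 and 39.5 CPM in myeloid cells, and Pitpnm3 at 10.8 CPM in epithelial and 9.05 CPM in mesenchymal cells. Of 12 partners or other ligands of the receptors, 10 reached 5 CPM, 6 of them highest in endothelial cells, including Ramp2, itself a marker of the endothelial gate, and 1 in myeloid cells. The nuclear protein Hmgb1, which can form a complex with Cxcl12, was at 1411 to 2324 CPM in the 5 classes, and Mif, a further ligand of Cxcr4, was at 634 CPM in epithelial and 171 CPM in endothelial cells. Ebf1, a transcription factor of stromal and neuronal lineages, was at 1002 CPM in mesenchymal, 673 CPM in endothelial and 1097 CPM in neuronal cells against 161 and 136 CPM in epithelial and myeloid cells. In neuronal cells Ebf1 was at 748, 3339 and 3509 CPM in order of stage, so the neurons of the later libraries also differed from those of E13.5 in this gene. All 14 genes for G proteins, arrestins and related signalling parts reached 5 CPM, 13 of them in mesenchymal cells, where 35.9% of all genes did, and 4 were highest in myeloid cells. The subunits Gnb1 and Gnaq were at 281 to 542 CPM and at 271 to 484 CPM in the 5 classes. Gnai2, an inhibitory G protein subunit, was at 487 CPM in endothelial and 383 CPM in myeloid cells against 149, 131 and 109 CPM in mesenchymal, epithelial and neuronal cells. The other inhibitory subunits of the list had another order: Gnai1 was at 59.3 CPM in mesenchymal and 12.3 CPM in myeloid cells, and Gnai3 was at 81.5 CPM in myeloid cells and at 110 to 126 CPM in the other classes.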

How the data were processed

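RNA was measured in single cells of 3 libraries, 1 a stage. The deposited values are UMI counts per gene and barcode, per the file headers. They were made with Cell Ranger 6.1.2 against mm10, per the submitters' processing notes. The annotation is not given in the sources used here. Kept barcodes had at least 500 genes and at most 20% mitochondrial UMIs. Cells with the highest Scrublet doublet scores, at a rate of 0.8% per 1000 cells, were left out (109, 25 and 56 cells). Folds between stages, classes or sub-gates are plain ratios of CPM. Counts of genes past 2-fold and values given on the log2 scale use log2(CPM + 1), the counts over genes with a mean of at least 5 CPM. Sub-gates needed at least 2 markers. Cells were clustered on 2000 variable genes, 30 components and 15 neighbours by the Leiden method at resolution 1 (scanpy 1.11.5, igraph 0.11.9, numpy 2.4.6, scipy 1.17.1, pandas 2.3.3, anndata 0.12.19). A limit for a count of 0 was 3 UMIs. The scripts were tested on simulated data.

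The members always, the 3 highest genes of each chemokine list and the 3 genes most like each member by correlation were named. Members and lists were chosen with earlier results of these data known. Of the gate, 6 widely detected progenitor markers were left out, erythroid cells were not gated because globin RNA was in most barcodes, and the sub-gate and 1.5-fold limits, the genes compared by single cell and the alternatives with a looser gate or without the deepest cluster were set after seeing the data. Clusters, ligands and sub-gate genes named beyond that rule were chosen after their values were seen. Nothing in the labels says whether barcodes were filtered for doublets before deposit. Not every gene that met these rules is reported here.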

Additional observations from a re-analysis of the deposited data

Results flagged for a closer look

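Levels in sub-gates moved in opposite directions between libraries, which are different embryos and stages, and these differences were not tested. Cxcl14 in mesenchymal cells with palatal regulators stood at 0.0651 times the other mesenchymal cells at E13.5, with 1 UMI in the sub-gate, and at 1.83 times them at E15.5. Cxcl12 in cells with fibroblast matrix markers stood at 0.515 times the rest at E13.5 and at 1.63 times at E15.5. Cxcl12 in cells with meningeal markers stood at 2.01, 0.667 and 1.50 times the rest in order of stage. Ackr3 in epithelial cells with stratified markers was at least 5.50-fold higher than the 3 UMIs that a count of 0 allows in the other epithelial cells at E14.5 (exact lower bound of the ratio 3.82) and at 0.229 times them at E15.5.

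Cells that met no gate, which enter no comparison of classes, carried all 4 members above the limit that a count of 0 allows. Cxcl12 in these unassigned cells was at 85.5, 81.9 and 91.2 CPM in order of stage, between the neuronal and the mesenchymal levels, and 142 of 212, 50 of 77 and 58 of 88 of the UMIs lay in clusters whose gated cells were mostly mesenchymal. Cxcl14 was at 8.47, 11.7 and 12.4 CPM in the unassigned cells. Cxcr4 was at 3.63, 11.7 and 21.8 CPM, and of its 21 UMIs at E15.5, 9 lay in epithelial, 6 in mesenchymal, 4 in neuronal and 2 in myeloid clusters. Ackr3 was at 15.7, 11.7 and 12.4 CPM. The equal values of Cxcl14 and Ackr3 at E14.5 and E15.5, and of Cxcr4 at E14.5, come from equal UMI counts, 11 at E14.5 and 12 at E15.5.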

How the results depend on the processing

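No paired analysis was possible because each stage was 1 library, and for the same reason no library could be left out within a stage. Of 58 ratios between classes recomputed under the alternatives, 54 moved by less than their counting interval, and of 289 ratios between stages, 276 did. None of the called ratios changed direction. The Cxcl14 mesenchymal ratio of E15.5 to E13.5 went from -0.18 to -1.08 on the log2(CPM + 1) scale, used for each value here, without chondrogenic, osteogenic and meningeal cells. The Cxcl12 mesenchymal to neuronal ratio went from 2.70 to 3.86 at E13.5 without the deepest cluster and from 2.42 to 4.18 at E15.5 with classes taken from clusters. The Cxcl12 mesenchymal to epithelial ratio at E15.5 went from 4.43 to 2.26 with classes from clusters and to 3.44 with the looser gate. The cause was not tested. Of 312 shares of cells, 29 moved beyond their interval, 21 of them under thinning. Values in classes of fewer than 20 cells were not recomputed. Depth limits Cxcl14, Cxcr4 and Ackr3, each of which rests on as little as 1 UMI in some class and library.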
